A study of Rattus norvegicus with 6 samples.

Results

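Intermediate filaments are the rope-like filaments of the cytoskeleton, and each cell type builds them from its own set of proteins. Transcripts of 8 of these genes were looked up by gene name in a table of 33455 genes: Nefl, Nefm and Nefh, the light, medium and heavy neurofilament chains; Ina, alpha-internexin; Prph, peripherin; and Vim, Nes and Des, for vimentin, nestin and desmin. The lookup found 7 of the 8, and Vim is not analysed here. Libraries came from the centre of a contusion injury at the T9 segment of the spinal cord of wild type rats (Rattus norvegicus). In the Piezo Gel+US group (n = 3) the gel was piezoelectric, that is, made to turn mechanical strain into electrical charge, and in the Gel+US group (n = 3) it was not named as such. Both groups had the injury and ultrasound over the implant at 100 Hz and 1 W/cm2 for 10 min a day, continued for 4 weeks, and a piece of about 5 mm3 was sampled. The labels give no age, and no uninjured or untreated animals were analysed here.

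In the axon, Nefl, Nefm and Nefh chains assemble together with alpha-internexin into the neurofilaments that set axon calibre, and large myelinated axons, including those of motor neurons, hold the most of them. Peripherin is the type III filament protein of neurons with axons in peripheral nerve, such as motor and sensory neurons. Nestin is known from neural progenitor cells and is also made by reactive astrocytes, Schwann cells and vessel wall cells, while desmin is the filament protein of muscle, smooth muscle and pericytes. In RNA from whole tissue, fewer cells of a type and less RNA per cell cannot be told apart.

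Total counts ran from 17212653 to 21436820 per library. A pair of libraries, 1 per group, stood apart in the markers that touch the filament genes. Piezo Gel+US replicate 2 had the highest summed level of 10 Schwann cell markers, 78850 CPM (counts scaled to a common library size), with 15350 to 26450 CPM in the other 5 libraries. Gel+US replicate 3 had the highest summed level of 14 neuron markers, 5437 CPM, and the highest summed level of 9 motor neuron markers, 1233 CPM. Where leaving out either library turns a result round, the value or range without it is given. Neuron and oligodendrocyte markers were present in every library, as the label of spinal cord implies, and Gfap, the astrocyte filament gene, is not analysed here.

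Neurofilament transcripts ranged from very abundant to moderate in the lesion core, and they differed more between animals of one group than between the groups. Nefl, the chain that the others need in order to assemble, measured 2644, 489 and 1219 CPM in Piezo Gel+US replicates 1 to 3, against 2329, 750 and 5658 CPM in Gel+US replicates 1 to 3. Gel+US replicate 3 was the highest library and Piezo Gel+US replicate 2 the lowest, and the groups overlapped. By level per kilobase of gene model, which allows genes to be compared, Nefl ranked 9th of all genes in Gel+US replicate 3 and 415th in Piezo Gel+US replicate 2.

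Nefm, the medium chain, carries a long side arm that projects from the filament. It measured 2841, 372 and 804 CPM in Piezo Gel+US replicates 1 to 3 and 1949, 459 and 5398 CPM in Gel+US replicates 1 to 3. Nefh, the heavy chain with the longest and most phosphorylated side arm, measured 1588, 220 and 535 CPM in Piezo Gel+US replicates 1 to 3 and 1096, 326 and 3026 CPM in Gel+US replicates 1 to 3. All 3 chains put the 6 libraries in one order. In Piezo Gel+US, replicate 1 came before replicate 3 and replicate 2 was last of all libraries, and among Gel+US libraries replicate 3 was first of all and replicate 2 last. Nefm and Nefl lie 38028 bases apart on one sequence of the deposited table, Nefm at 56346240 to 56351581 on the plus strand and Nefl at 56389610 to 56394854 on the minus strand, in a build that is not named. None of the 33455 gene IDs (0) occurs in the Norway rat table of RefSeq, while the names of all 7 filament genes do, and the table's sequence names are, from general knowledge, those of the black rat, Rattus rattus. What this does to the counts, gene lengths and absent names was not tested, and the promoter windows shown for the Norway rat come from another annotation than the counts. Nefh lies on another sequence, at 73913368 to 73923737 on the minus strand.

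**Figure D1:**
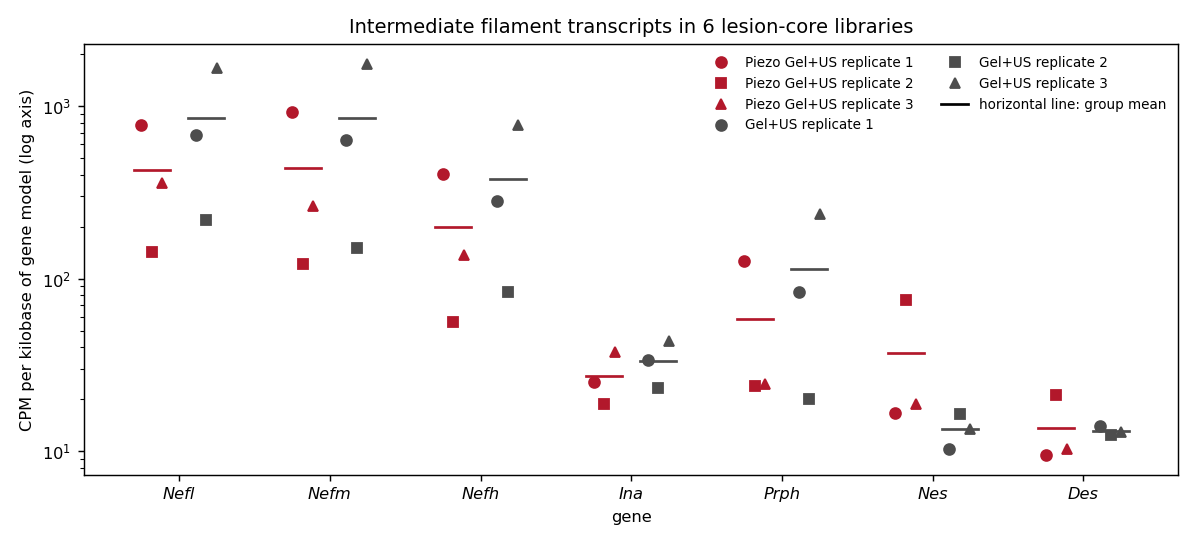
Levels of the 7 intermediate filament genes in each library, as CPM per kilobase of gene model on a log axis, with Piezo Gel+US left of Gel+US for each gene and a line at each group mean. For Nefl, Nefm, Nefh and Prph the libraries of one group spread over more than the distance between the group means, while Nes has 1 library, Piezo Gel+US replicate 2, at 75.6 and the other 5 between 10.3 and 18.8.

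Ina, alpha-internexin, did not share this spread. It measured 83.8, 62.3 and 125 CPM in Piezo Gel+US replicates 1 to 3, against 113, 77.5 and 145 CPM in Gel+US replicates 1 to 3. Piezo Gel+US replicate 3, which was low for the 3 neurofilament chains, was the second highest library for Ina. The highest level was 2.33 times the lowest for Ina, whereas the same quotient was 11.6 for Nefl, 14.5 for Nefm and 13.8 for Nefh. The standard deviation of log2 CPM over the 6 libraries was 0.46 for Ina, larger than in 60.5% of the 17066 genes tested, and 1.297, 1.54 and 1.44 for Nefl, Nefm and Nefh, larger than in 96.3%, 98.0% and 97.4% of them. Ina shares 1 stretch of its position with Nt5c2, a gene on the opposite strand. No source used here says whether strand entered the counting, so reads of the pair may not have been told apart.

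Peripherin had the spread of the neurofilament chains. Prph measured 236, 44.4 and 45.6 CPM in Piezo Gel+US replicates 1 to 3, against 157, 37.5 and 440 CPM in Gel+US replicates 1 to 3. Gel+US replicate 3 and Piezo Gel+US replicate 1 were again the highest, and 3 libraries lay together between 37.5 and 45.6 CPM. Its highest level was 11.7 times its lowest, and its standard deviation of 1.49 was larger than in 97.7% of genes tested.

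The proportions of the neuronal chains varied far less than their sum. Per kilobase, the 5 neuronal chains together reached 2252, 362 and 815 CPM in Piezo Gel+US replicates 1 to 3, against 1710, 495 and 4457 CPM in Gel+US replicates 1 to 3. Of that sum, Nefl made up 39.1% ± 4.69 in the Piezo Gel+US group and 40.3% ± 3.64 in the Gel+US group (SD, n = 3 each). Nefm made up 35.5% ± 4.83 in the Piezo Gel+US group and 35.6% ± 4.78 in the Gel+US group, and Nefh 16.7% ± 1.26 in the Piezo Gel+US group and 16.8% ± 0.491 in the Gel+US group. The share of Nefh stayed between 15.5% and 18.0% in all 6 libraries, while the share of Ina lay between 0.976% and 5.16% and that of Prph between 2.99% and 6.57%.

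**Figure D2:**
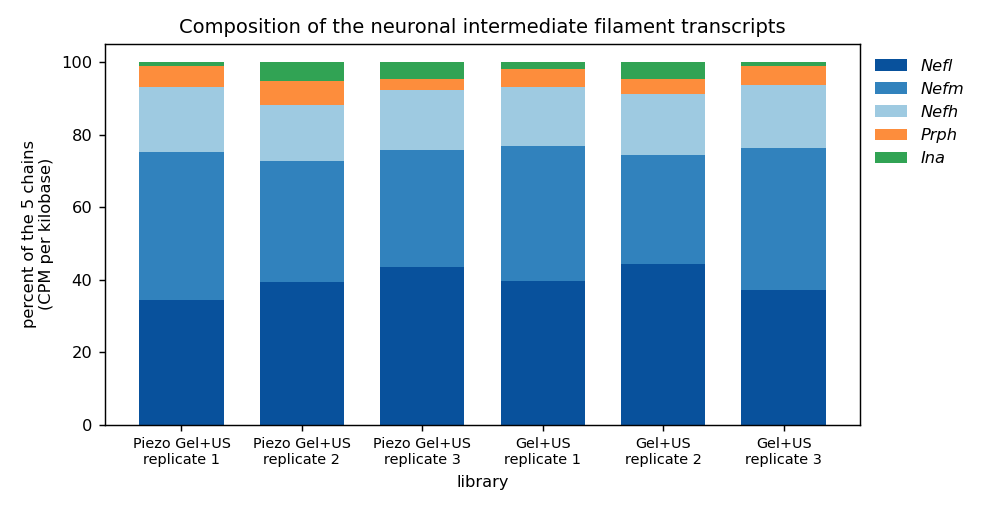
Share of each neuronal chain in the sum of the 5 chains, in percent of CPM per kilobase, one bar per library with Piezo Gel+US on the left. Nefl, Nefm and Nefh make up most of every bar, and the share of Ina ranges from 0.976% in Gel+US replicate 3 to 5.16% in Piezo Gel+US replicate 2.

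Ratios inside a library do not depend on its depth, and 4 were compared between the groups. The mean log2 ratio of Nefm to Nefl, per kilobase, was -0.14 ± 0.36 (SD) for the Piezo Gel+US animals and -0.19 ± 0.33 for the Gel+US animals, with n = 3 each (p = 0.9 in an exact permutation test, two-sided). That of Nefh to Nefl was -1.22 ± 0.25 for the Piezo Gel+US animals and -1.26 ± 0.15 for the Gel+US animals (exact permutation p = 0.8). That of Prph to Nefl was -3.02 ± 0.73 for the Piezo Gel+US animals and -3.09 ± 0.33 for the Gel+US animals (exact permutation p = 0.9). None of these differences was larger than the spread between animals, and the smallest p that 3 against 3 allows is 0.1.

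Of the 4 ratios, that of Ina to Nefl varied most over the 6 libraries. Nefl per kilobase was 30.7, 7.63 and 9.49 times Ina in Piezo Gel+US replicates 1 to 3, against 20.1, 9.40 and 38.0 times in Gel+US replicates 1 to 3. The 3 libraries with the least Nefl had the largest share of Ina, in both groups. Nefl is part of the sum behind that share and varied more than Ina, so this order follows in part from the arithmetic. The mean log2 ratio of Ina to Nefl was -3.71 ± 1.08 for the Piezo Gel+US animals and -4.27 ± 1.01 for the Gel+US animals (exact permutation p = 0.6, n = 3 each), and all 4 ratios had a Benjamini-Hochberg adjusted p of 0.9.

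Among the 21 pairs of the 7 genes, 6 had correlated log2 CPM over the 6 libraries at an adjusted p below 0.05, and all 6 lay among Nefl, Nefm, Nefh and Prph. Pearson's r was 0.990 for Nefl and Nefm, 0.996 for Nefl and Nefh and 0.997 for Nefm and Nefh (exact permutation p = 0.00139 each, adjusted p = 0.00972; Spearman's rho 1, exact permutation p = 0.00278, adjusted p = 0.0194). Without the 2 libraries farthest from the median of the first gene (replicate 2 of Piezo Gel+US, replicate 3 of Gel+US), these values were 0.993, 0.991 and 0.9995. With Prph the chains had r of 0.943 for Nefl, 0.9752 for Nefm and 0.960 for Nefh (exact permutation p of 0.00972, 0.00417 and 0.00694, adjusted p of 0.0340, 0.0219 and 0.0292), and r without the same 2 libraries was 0.963, 0.982 and 0.979. Spearman's rho was 0.943 for each of the 3 chains with Prph (exact permutation p = 0.0167, adjusted p = 0.0583). Libraries of equal replicate number may not be independent. Of 12992 other genes searched, 918 had r above 0.9 with Nefl, 623 with Nefm, 720 with Nefh and 314 with Prph.

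With Ina the relation rested on the outer libraries. For Nefl and Ina r was 0.774 and rho 0.771 (exact permutation p = 0.0861 and 0.103, adjusted p = 0.222 and 0.240), and r was 0.21 without the 2 outer libraries. Nes ran the other way, with r of -0.719 and rho of -0.6 against Nefl (exact permutation p = 0.1 and 0.242, adjusted p = 0.222 and 0.390), and r of -0.47 without the 2 outer libraries. Neither relation passed the threshold. For Nes and Des r was 0.693 and rho -0.0857 (exact permutation p = 0.185 and 0.919, adjusted p of r = 0.277), and r was -0.67 without Piezo Gel+US replicate 2 and replicate 1 of Gel+US.

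Prph passed the threshold in its Pearson correlations with the neurofilament chains, and Ina and Nes did not. The 250 bases before the transcription start are shown for these 3 genes. They were read from RefSeq for the Norway rat (build GRCr8, plus strand): chr7:132097039-132097288 for Prph, chr1:255837879-255838128 for Ina and chr2:175736338-175736587 for Nes. RefSeq windows were matched by symbol for 4 of the genes, these 3 and Des. None was matched for Nefl, Nefm or Nefh, so the windows cannot show what Prph shares with the chains. Capitals mark the letters TATAAA and the letters GGGCGG, searched on both strands; the letters CCAAT and the letters CANNTG were searched too.
Prph: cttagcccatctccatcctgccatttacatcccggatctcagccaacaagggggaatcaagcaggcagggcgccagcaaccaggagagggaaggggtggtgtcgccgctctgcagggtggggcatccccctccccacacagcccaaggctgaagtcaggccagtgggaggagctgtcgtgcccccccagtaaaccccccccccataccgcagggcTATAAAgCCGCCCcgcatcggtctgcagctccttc
Ina: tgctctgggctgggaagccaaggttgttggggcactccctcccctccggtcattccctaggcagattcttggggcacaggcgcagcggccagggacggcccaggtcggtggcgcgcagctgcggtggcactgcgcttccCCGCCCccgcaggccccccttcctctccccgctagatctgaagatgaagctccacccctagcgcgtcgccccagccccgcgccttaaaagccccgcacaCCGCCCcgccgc
Nes: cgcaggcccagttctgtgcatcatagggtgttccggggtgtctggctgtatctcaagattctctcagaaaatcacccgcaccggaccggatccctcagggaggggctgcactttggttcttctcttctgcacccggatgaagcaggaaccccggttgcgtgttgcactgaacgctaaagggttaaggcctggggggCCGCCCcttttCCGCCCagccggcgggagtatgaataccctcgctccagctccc
The letters TATAAA occurred once in the Prph window, from base -35 to -30 before the start, and in 13.1% of the 27457 windows of the same length. They were not in the windows of Ina, Nes or Des. GGGCGG occurred 2 times for Ina, 1 time for Prph, 2 times for Nes and 3 times for Des, and in 32.4% of all windows. The E-box, CANNTG, occurred 1 time each for Ina and Des and in 65.2% of all windows. The letters CCAAT were in 34.3% of all windows and in none of the 4. A match is a string of letters, and binding was not measured.

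Nestin was the one gene of the 7 whose groups did not overlap in CPM. Nes measured 103, 470 and 117 CPM in Piezo Gel+US replicates 1 to 3, against 63.8, 102 and 83.3 CPM in Gel+US replicates 1 to 3. The gap between the groups was narrow, since the lowest Piezo Gel+US library had 103 CPM and the highest Gel+US library 102 CPM, and Piezo Gel+US replicate 2 stood far above the other 5. By share of total counts the groups did overlap, with 0.01033% in Piezo Gel+US replicate 1 and 0.01066% in Gel+US replicate 2. Nes averaged 230 ± 208 CPM in Piezo Gel+US and 83.0 ± 19.1 CPM in Gel+US (SD, n = 3 each). Of all genes tested, 4.08% were higher in Piezo Gel+US with no overlap and 2.73% were lower with no overlap. Nes sits at 65577513 to 65586531 on the minus strand in the deposited table.

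The log2 fold change of Nes was 1.47 (SE 0.61, 95% interval 0.0030 to 2.94), with an unadjusted p of 0.0497 and an adjusted p of 0.994 by the edgeR quasi-likelihood test over 17066 genes; no gene passed the adjusted threshold, 0%. At an unadjusted p below 0.05 stood 359 genes, or 2.1% of those tested (986 with the replicate number as a block), and Nes was the one of the 7 filament genes among them. That unadjusted p was 0.0150 in DESeq2, 0.0401 with no filter and 0.0298 with the replicate block. It was 0.0507 with RLE factors, 0.0554 with library totals alone, 0.0881 in limma-voom and 0.149 without Piezo Gel+US replicate 2. The side of 0.05 on which it lies depends on these settings. In the pairs of equal replicate number the ratios of Nes in Piezo Gel+US over Gel+US were 1.61, 4.61 and 1.403. Since the groups did not overlap in CPM, any pairing would put Piezo Gel+US higher in each pair. Without Piezo Gel+US replicate 2 the log2 fold change was 0.40 (adjusted p = 1.00 by the same test), and without Gel+US replicate 3 it was 1.45 (adjusted p = 1.00).

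Desmin had close group means, and its highest value was in the same library as that of nestin. Des measured 21.8, 49.0 and 23.6 CPM in Piezo Gel+US replicates 1 to 3, against 32.2, 28.7 and 29.8 CPM in Gel+US replicates 1 to 3. All 3 Gel+US libraries lay between the lower Piezo Gel+US libraries and Piezo Gel+US replicate 2. The log2 fold change was 0.059 (95% interval -0.73 to 0.85, adjusted p = 0.994 by the edgeR test) and -0.42 without Piezo Gel+US replicate 2 (unadjusted p = 0.0448, adjusted p = 1.00). Its sign changed with the scaling, to -0.019 when libraries were scaled by their totals alone.

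No filament gene was called between Piezo Gel+US and Gel+US. By the edgeR quasi-likelihood test 0 of the 7 genes and 0 of all 17066 genes, 0%, had an adjusted p below 0.05, and DESeq2 and limma-voom also called 0. Among the neuronal chains the log2 fold change was -1.01 for Nefl (95% interval -3.03 to 1.02), -0.96 for Nefm (-3.39 to 1.47), -0.92 for Nefh (-3.20 to 1.35) and -0.96 for Prph (-3.33 to 1.42). For Ina it was -0.31 (-1.10 to 0.48). The adjusted p was 0.994 for each of these 5. Log2 fold changes were below 0 for 5 of the 7 genes, against 52.9% of all genes tested.

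**Figure D3:**
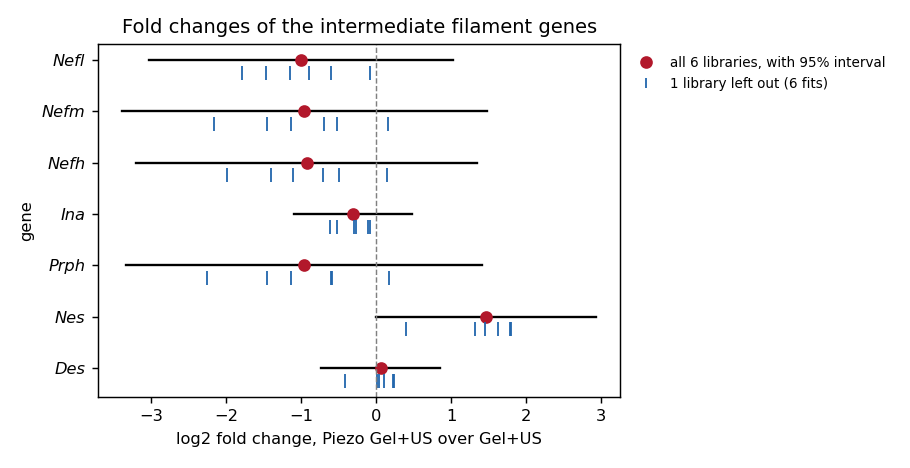
Log2 fold change of each gene, Piezo Gel+US over Gel+US, with its 95% interval (points and lines) and the values with 1 library left out (blue ticks). The intervals of Nefl, Nefm, Nefh, Ina, Prph and Des include 0, that of Nes begins at 0.0030, and the tick of Nes nearest to 0 is the fit without Piezo Gel+US replicate 2 at 0.40.

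The negative mean differences of the neurofilament chains rested on 1 library. Without Gel+US replicate 3 the log2 fold change was -0.083 for Nefl, 0.16 for Nefm, 0.14 for Nefh, 0.17 for Prph and -0.080 for Ina. Without Piezo Gel+US replicate 1 it was -1.79 for Nefl, -2.16 for Nefm, -1.99 for Nefh and -2.25 for Prph. Between libraries of equal number, Nefl in Piezo Gel+US over Gel+US was 1.14 for replicate 1, 0.652 for replicate 2 and 0.215 for replicate 3. For Ina the ratios in these pairs were 0.743, 0.804 and 0.862, while its groups overlapped. How many of all genes tested lay on one side in every pair was not counted.

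The neuron markers were highest and lowest in the same libraries as the chains, over a smaller range. Their summed level was 3124, 1589 and 2958 CPM in Piezo Gel+US replicates 1 to 3, against 3462, 1772 and 5437 CPM in Gel+US replicates 1 to 3. Of 15 listed neuron markers 14 were tested, 0 were called and 14 had a log2 fold change below 0, with a median of -0.48, beside -0.021 over all genes tested. Syt1, the calcium sensor of synaptic vesicles, measured 45.6 ± 14.1 CPM in Piezo Gel+US and 78.3 ± 29.8 CPM in Gel+US (log2 fold change -0.78), and for Scg2, a granin of secretory vesicles, it was -0.67. The neuron list had a median of -0.021 without Gel+US replicate 3. The part of neuron number in the levels of the chains was not tested.

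The 2 libraries with the most Prph also had the most motor neuron markers. The 9 matched markers summed to 550, 232 and 226 CPM in Piezo Gel+US replicates 1 to 3, against 507, 166 and 1233 CPM in Gel+US replicates 1 to 3. Slit3, part of this sum, measured 45.5, 99.65 and 43.1 CPM in Piezo Gel+US replicates 1 to 3. In Gel+US replicates 1 to 3 it measured 46.3, 55.9 and 40.2 CPM, and its log2 fold change was 0.40. Chat, the enzyme that makes acetylcholine, measured 33.1, 3.57 and 5.59 CPM in Piezo Gel+US replicates 1 to 3 and 32.2, 3.55 and 99.8 CPM in Gel+US replicates 1 to 3. The 3 libraries with the least Chat were the 3 with the least Prph. Of the 9 tested, 0 were called, 8 had a log2 fold change below 0 and the median was -1.18, or -0.067 without Gel+US replicate 3. Ret, a growth factor receptor, had a log2 fold change of -0.76 and Isl1, a transcription factor of motor and sensory neurons, of -1.70. Their part in the peripherin level was not tested.

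Dorsal root ganglion neurons also make peripherin, and their markers were near the floor of the counts. The 12 matched markers summed to 26.0, 26.7 and 29.3 CPM in Piezo Gel+US replicates 1 to 3, against 27.1, 20.6 and 30.9 CPM in Gel+US replicates 1 to 3. Prdm12 had 0 counts in every library, and Scn10a, a sodium channel of pain-sensing neurons, had 0 to 10 counts. Of the 7 tested, 0 were called and 4 were below 0, with a median of -0.43, and of 0.11 without Gel+US replicate 3. Avil, an actin-binding protein of sensory neurons, had a log2 fold change of 0.70 and Drgx, a transcription factor of sensory neurons and dorsal horn, of -0.83.

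The microtubule and motor genes that build and supply the axon lay in the same direction as the chains, with a smaller spread. Of 21 tested, 0 were called, 19 were below 0 and 2 above, with a median of -0.31. Tuba4a, an alpha-tubulin, measured 144 ± 50.3 CPM in Piezo Gel+US and 227 ± 108 CPM in Gel+US (log2 fold change -0.65), and Myo5a, a myosin motor that carries vesicles, had a log2 fold change of -0.57. The list's median was -0.010 when Piezo Gel+US replicate 2 was left out, and 0.049 when Gel+US replicate 3 was. Tubb3, the neuronal beta-tubulin, measured 595, 153 and 240 CPM in Piezo Gel+US replicates 1 to 3, against 470, 158 and 1068 CPM in Gel+US replicates 1 to 3, in the order of Nefm.

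**Figure D4:**
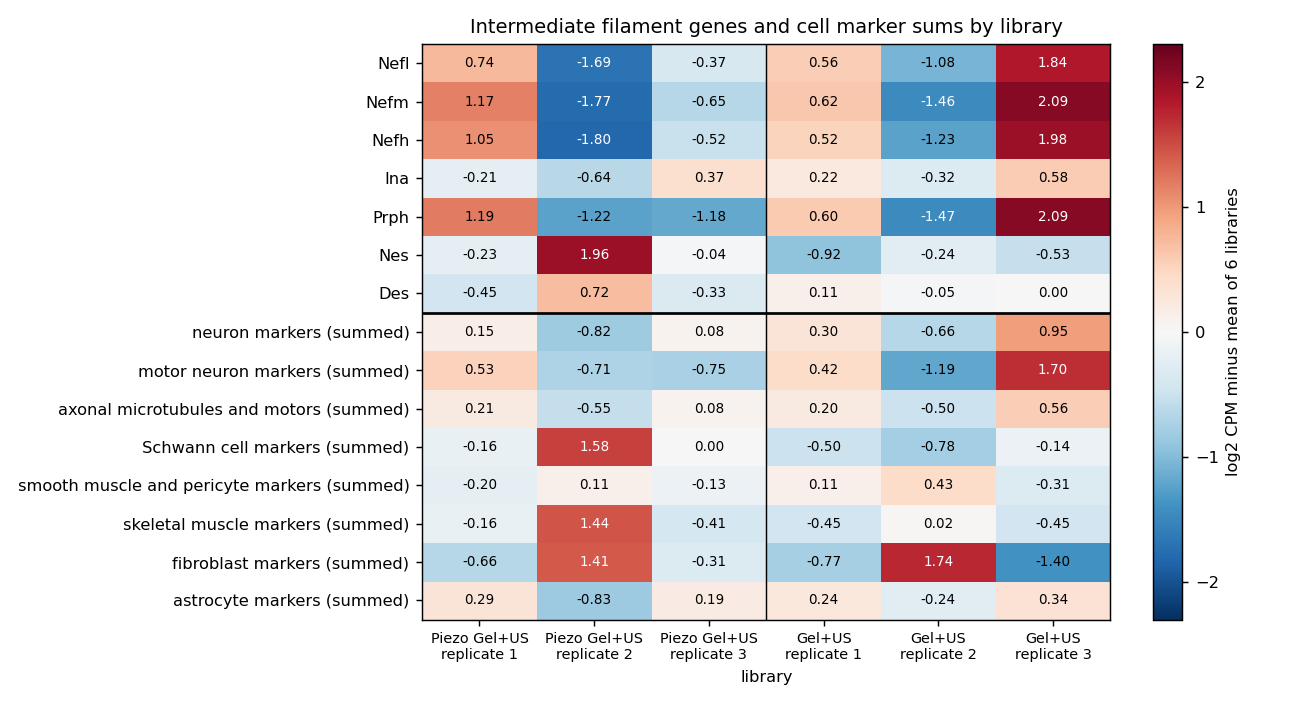
Level of each filament gene and summed level of 8 gene lists in each library, as log2 CPM minus the mean of the 6 libraries, with Piezo Gel+US on the left. Nefl, Nefm, Nefh and Prph share their high and low libraries with the motor neuron markers, while Nes and Des are highest in Piezo Gel+US replicate 2, where the Schwann cell and skeletal muscle markers are also highest.

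Markers of several other cell types were high in Piezo Gel+US replicate 2, the library with the most Nes and Des. The 10 matched Schwann cell markers summed to 23560, 78850 and 26450 CPM in Piezo Gel+US replicates 1 to 3, against 18680, 15350 and 23980 CPM in Gel+US replicates 1 to 3. Oligodendrocytes also make part of this sum. Of the 10 tested 0 were called, 6 had an unadjusted p below 0.05, and the median log2 fold change was 1.54, or 0.59 without Piezo Gel+US replicate 2. Over all genes tested, 2.1% had such a p. So had 3 of 9 ependymal, 2 of 10 smooth muscle and pericyte, 2 of 9 skeletal muscle and 1 of 10 endothelial markers. Drp2, which anchors peripheral myelin to the basal lamina, had a log2 fold change of 1.56 and Cldn19, a tight junction protein of peripheral myelin, of 2.14. Their part in the nestin level was not tested.

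The skeletal muscle markers, of cells that carry desmin, had a low sum, highest in that library, but they did not all share this pattern. The 12 matched markers summed to 41.5, 126 and 35.0 CPM in Piezo Gel+US replicates 1 to 3, against 34.1, 47.2 and 34.1 CPM in Gel+US replicates 1 to 3. Acta1, skeletal muscle actin, had 43, 1434 and 58 counts in Piezo Gel+US replicates 1 to 3 and 38, 20 and 37 counts in Gel+US replicates 1 to 3. Ckm, muscle creatine kinase, had 0, 199 and 6 counts in Piezo Gel+US replicates 1 to 3 and 3, 6 and 6 counts in Gel+US replicates 1 to 3. Of the 9 tested 0 were called, 4 were above 0 and 5 below. The median was -0.030, and with no low-count filter it was 0.20 in edgeR and 0.19 in DESeq2. Log2 fold changes were 3.98 for Acta1 and 2.25 for Myh1, a fast muscle myosin. Other members differed: Tnnt3, a troponin of fast muscle, had 83, 165 and 36 counts in Piezo Gel+US replicates 1 to 3 and 30, 320 and 5 counts in Gel+US replicates 1 to 3, and Tnnc2, another troponin, had its lowest count, 95, in Piezo Gel+US replicate 2. Without Piezo Gel+US replicate 2 the median of the list was 0.19, and without Gel+US replicate 3 it was 0.052. Their part in the desmin level was not tested.

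Smooth muscle and pericytes are the other known source of desmin, and their part in the desmin level was not tested. Their markers summed to 1027, 1277 and 1078 CPM in Piezo Gel+US replicates 1 to 3, against 1279, 1590 and 952 CPM in Gel+US replicates 1 to 3, with the highest sum in Gel+US replicate 2 and, among Piezo Gel+US libraries, in replicate 2. Of 10 tested 0 were called and 8 were below 0 (median -0.24), with log2 fold changes of -1.37 for Cnn1, smooth muscle calponin, and 0.51 for Cspg4, the NG2 proteoglycan of pericytes and glial precursors. Endothelial markers, from vessel cells that can carry nestin, had 6 of 10 above 0 and 0 called (median 0.15, and -0.046 without Gel+US replicate 3), with 0.60 for Kdr, a vascular growth factor receptor, and 0.49 for Cldn5, a tight junction protein.

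Other filament genes gave no call either. Of 16 listed, 12 were matched and 8 tested, with 2 above 0 and 6 below (median -0.17, and 0.099 without Gel+US replicate 2). Synm, synemin, which joins vimentin and desmin filaments, measured 49.5 ± 4.02 CPM in Piezo Gel+US and 54.8 ± 6.96 CPM in Gel+US (log2 fold change -0.15), the smallest spread of the filament genes given here. Krt8, a keratin of simple epithelia, measured 3.84, 7.596 and 0.776 CPM in Piezo Gel+US replicates 1 to 3 and 4.21, 25.9 and 2.36 CPM in Gel+US replicates 1 to 3, and Bfsp2, a lens filament protein, had a log2 fold change of -0.59. The lamins of the nucleus had log2 fold changes of 0.25 for Lmna, -0.18 for Lmnb1 and -0.23 for Lmnb2.

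Linkers, chaperones and kinases of the filaments had 0 of 25 called, 8 above 0 and 17 below (median -0.12). Cryab, alpha-B crystallin, a small heat shock protein that chaperones desmin and glial filaments, measured 277, 1065 and 447 CPM in Piezo Gel+US replicates 1 to 3, against 200, 185 and 364 CPM in Gel+US replicates 1 to 3 (log2 fold change 1.26, unadjusted p = 0.0559, adjusted p = 0.994 by edgeR). Mapk3, a kinase that phosphorylates neurofilament side arms, measured 348, 873 and 367 CPM in Piezo Gel+US replicates 1 to 3 and 309, 300 and 316 CPM in Gel+US replicates 1 to 3 (log2 fold change 0.78). Both were highest in Piezo Gel+US replicate 2, as Nes was. Plec, plectin, which ties filaments to each other, had a log2 fold change of 0.22 and Cdk5, another neurofilament kinase, of -0.29.

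The remaining marker lists had 0 called as well. Astrocyte markers had 10 of 11 below 0 (median -0.21, and 0.075 without Piezo Gel+US replicate 2; Slc1a3, a glutamate transporter, -0.63 and Aqp4, a water channel, -0.58) and ependymal markers 9 of 9 (median -0.96; the cilia genes Ak7, -1.46, and Cfap43, -1.41). Oligodendrocyte markers had 5 of 10 below 0 (median 0.0063, with 0.38 for Cnp and 0.60 for Ugt8, both myelin enzymes). That median was -0.021 with library totals alone and -0.20 both in limma-voom and with the replicate block. Without 1 library it ran from -0.30 to 0.20. Macrophage and microglia markers had 8 of 10 below 0 (median -0.29, but 0.022 without Piezo Gel+US replicate 2, or 0.098 when Gel+US replicate 2 was left out). In that list the purine receptor P2ry12 had -0.50 and osteopontin, Spp1, 0.60. Fibroblast markers had 5 of 11 below 0 (median 0.21, and -0.60 without Piezo Gel+US replicate 2, -0.21 without Gel+US replicate 3, -0.23 without Gel+US replicate 1, but 1.63 when Gel+US replicate 2 was left out; Dcn, decorin, 1.06 and Fn1, fibronectin, -0.75), and their sum was highest in Gel+US replicate 2, 8249 CPM, and in Piezo Gel+US replicate 2, 6571 CPM, the 2 libraries with the least Nefl.

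Among 12992 genes with a proper symbol and a mean of at least 1 CPM, those with the pattern most like each filament gene were found by Pearson's r of log2 CPM over the 6 libraries, as a description. For Nefl these were Trappc11, Ankrd17 and Usp20 (r of 0.998, 0.997 and 0.997), for Nefm Slc35d3, Kcnj14 and Tubb3 (0.998, 0.998 and 0.997) and for Nefh Clpb, Fgf11 and Kcnj14 (1.00, 0.999 and 0.998). Prph was closest to Vwa7, Isl2 and Palm3 (0.996, 0.995 and 0.992), of which Isl2 is a transcription factor of motor neurons and was in the motor neuron list. Ina was closest to Atg2b, Phka1 and Tmem169 (0.997, 0.995 and 0.995), Nes to Lrrk2, Nek1 and Shc4 (0.999, 0.998 and 0.998) and Des to Wdr82, Ankrd39 and Pafah2 (0.997, 0.994 and 0.990). Such values were common over these 6 libraries: 918 of the 12992 genes had r above 0.9 with Nefl, 314 with Prph and 153 with Des. The reason was not tested. A high r says nothing of size, since the log2 fold change was -0.14 for Trappc11 and -1.01 for Nefl.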

How the data were processed

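Total RNA of 6 lesion-core libraries was sequenced after oligo(dT) selection, with strand kept by dUTP, per the labels' protocols. The authors deposited raw read counts for each gene, with no scaling. Per the submitters' processing notes, the tools were DESeq2 1.20.0, featureCounts 1.5.0-p3, HISAT2 2.0.5 and fastp 0.19.7, with no role given. No source used here names the build, annotation or strand setting; 0 of 33455 gene IDs are in the Norway rat RefSeq table (GRCr8), and the sequence names are, from general knowledge, those of Rattus rattus. Gene model lengths also come from the authors' table.

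Columns were joined to samples by library name, and none was left unused (0). Groups were compared in edgeR 4.0.16 (R 4.3.3): TMM factors, filterByExpr (minimum count 10, total 15), the robust quasi-likelihood test of a model holding group alone, Benjamini-Hochberg over 17066 genes, threshold 0.05. The same code was tested on simulated data. CPM use TMM-scaled totals; correlations use log2 CPM with a prior count of 2. Ratios and correlations used exact permutation tests (SciPy 1.17.1). The labels call the samples biological replicates. 

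The filament genes and the 17 gene lists (215 entries, 195 matched by name) were chosen with earlier results of these data known. Named genes are the filament genes, the 2 genes of lowest p in each other list and the 3 genes of most similar pattern. Others, such as Chat, Slit3, Ckm, Prdm12, Synm, the lamins, Plec, Cdk5, Tnnt3, Tnnc2 and Scn10a, were named after their values were seen. Both groups carry numbers 1 to 3: over all genes, the deviations of libraries from their group means correlated at 0.253, 0.296 and 0.251 between libraries of equal number. Between libraries of unequal number the values ran from -0.342 to 0.198. Deviations within a group sum to 0, so these values are not independent. By the rule used, libraries of equal number are marked as pairs, although the labels do not say so. The alternatives were DESeq2, limma-voom, other factors, no filter, a replicate block and 1 library left out. Ratios with Vim were not computed. Values of some listed genes are not reported here.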

Additional observations from a re-analysis of the deposited data

How the results depend on the processing

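No alternative called a gene: edgeR with other factors or no filter, DESeq2, limma-voom, the replicate block and each fit without 1 library gave 0 calls over all genes (0 to 0), and 0 of the 7 filament genes. Genes at an unadjusted p below 0.05 numbered 359 of 17066, but 986 with the replicate block and 141 to 775 without 1 library. DESeq2 was run with no low-count filter, on 23240 genes, and had 652, while edgeR with no such filter had 496. The replicate block changed no call (unadjusted p of Nes 0.0298). That p was above 0.05 with RLE factors, library totals, limma-voom and 4 of the 6 fits without 1 library (0.0221 to 0.149). It was below 0.05 in DESeq2 (0.0150) and with no filter (0.0401). Des changed sign, to -0.019 with library totals alone, -0.038 in limma-voom and -0.044 with the replicate block. Without 1 library the log2 fold change ran from -1.79 to -0.083 for Nefl, -2.16 to 0.16 for Nefm, -1.99 to 0.14 for Nefh, -0.61 to -0.080 for Ina, -2.25 to 0.17 for Prph, 0.40 to 1.79 for Nes and -0.42 to 0.24 for Des. Without replicate 2 of Piezo Gel+US and also replicate 3 of Gel+US, chosen after seeing the data, it was 0.33 for Nefl, 0.60 for Nefm, 0.58 for Nefh, 0.14 for Ina, 0.54 for Prph, 0.41 for Nes and -0.42 for Des. The differences of the log2 ratios to Nefl ran without 1 library from -0.15 to 0.20 for Nefm, -0.11 to 0.12 for Nefh, 0.074 to 1.18 for Ina and -0.15 to 0.49 for Prph. For the ratios the replicate block cannot move the mean difference, since pairs are complete; its exact permutation p was 1, 0.75, 0.75 and 1 for Nefm, Nefh, Ina and Prph. The count of correlated pairs was 6 with library totals as well. The causes were not tested.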
